A study of Homo sapiens with 24 samples.

Results

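NEAT1, MALAT1, SFPQ, NONO and PSPC1 are the 5 genes followed here, 5 of the 23595 gene symbols that the expression tables hold. The first 2 are nuclear long noncoding RNAs, and the other 3 are the core proteins of the paraspeckle. The rows were taken by symbol. The set was chosen by the measured rise of NEAT1 under the compound OTX in U937, so its U937 values are given as a description, with no test. Every gene of the set had a group mean above the low-value filter of 1 FPKM in all 8 groups.

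RNA was measured by sequencing of polyA RNA in 2 human cell lines labelled as acute myeloid leukaemia, IMS-M2 and U937. Each line was grown in medium holding folic acid (+FA) or lacking it (-FA), and received the vehicle DMSO or OTX. The labels give OTX no dose and no time. By knowledge of the study from outside the files it is birabresib, which blocks the bromodomains of the BET proteins, readers of acetylated histones that promote transcription. The 8 groups hold 3 libraries each, 24 in all, and a table holds the 6 libraries of a line and a folic acid condition. Each line is an established line with no engineered allele named in the labels. Nothing says that replicates were separate cultures, so p-values measure only the spread between these samples, which may be technical.

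The libraries were alike in summed FPKM, from 522659 to 644841, and in genes at 1 FPKM or more, from 10418 to 10894. FPKM scales fragment counts by transcript length and by the mapped fragments of the library. Levels can thus be compared between genes per length where polyA capture is alike, but the read depth behind a value is unknown. Correlation of a library with the rest of its group ran from 0.991 to 0.998. The lowest correlation and the highest summed FPKM were both those of U937 DMSO column 2 without folic acid. Of 12 myeloid and leukocyte markers, 8 averaged at least 1 FPKM over the 12 libraries of IMS-M2 and 9 over those of U937. MPO, CSF1R and CD14 averaged below 1 FPKM over each line, although MPO had a group mean of 2.18 FPKM in IMS-M2 with folic acid under DMSO and of 1.40 and 1.08 FPKM in U937 under OTX, and CSF1R 1.43 FPKM in U937 without folic acid under DMSO. In IMS-M2 the summed level of the list was 299 to 338 FPKM under DMSO and 131 to 164 FPKM under OTX, and 9 of 10 tested markers fell in each table. In U937 the summed level was 1034 to 2385 FPKM under DMSO and 834 to 1152 FPKM under OTX. LYZ had the largest share of that sum, at 548 and 260 FPKM with folic acid and 1445 and 446 FPKM without. Of 11 markers tested in U937, 4 rose in each table (MPO, PTPRC, ITGAM and ANPEP), and 5 fell with folic acid and 6 without. Of all tested genes in U937, 29.1% rose and 27% fell with folic acid, and 28% and 31.7% without. The lymphoid marker NKG7 fell in all 4 tables, which 11.8% of the genes tested in every table did. In U937 it had 225 FPKM under DMSO and 63.5 FPKM under OTX when folic acid was present, and 261 and 84.7 FPKM when it was absent. IMS-M2 also held ITGA2B, KRT8, KRT18 and PDGFRB above 1 FPKM, markers of megakaryocytes, epithelium and stroma, and none of those lists reached 1 FPKM in U937. The part of these shifts in the results below was not tested.

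Paraspeckles are nuclear bodies built on the NEAT1 transcript. NEAT1 is made in a short form and a long form from the same start, and the long form is the scaffold to which SFPQ, NONO and PSPC1 bind. These 3 RNA-binding proteins form the DBHS family, named for their Drosophila behaviour and human splicing domain, and pair with each other as dimers. MALAT1 is transcribed from the neighbouring gene and collects in nuclear speckles, bodies rich in splicing factors. MALAT1 and the long form of NEAT1 lack an ordinary poly(A) tail and end in an encoded A-rich stretch left by RNase P cleavage; the libraries were made from polyA RNA, and the bearing of this on their levels was not tested.

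In hg19, the build named in the submitters' processing notes, the NEAT1 row of the tables is placed at chr11:65190268-65194003, a span of 3736 bases. RefSeq gives NEAT1 a gene length of 22743 bases in GRCh38.p14. The row therefore spans the 5′ stretch that both forms share and not the rest of the long form, and the forms cannot be told apart in these values. MALAT1 is placed at chr11:65265232-65273939, a span of 8708 bases, 71228 bases past the end of the NEAT1 row. SFPQ lies at chr1:35649200-35658743 and PSPC1 at chr13:20248891-20357159. NONO has the locus chrX:70430034-70948962, which the tables share between it and 11 other genes, so that span is not the gene's own length.

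Promoter sequences from RefSeq (GRCh38.p14) were matched for 3 of the 5 genes, MALAT1, NONO and PSPC1. Each runs from 250 bases before a start to 50 bases after it. All windows found for the 5 genes are shown, and none was found for NEAT1 or SFPQ. MALAT1 rose under OTX in all 4 tables, whereas NONO and PSPC1 each passed the test in a single table, in opposite directions. A link of the motifs to these changes was not tested. Capitals mark matches, on either strand, to any of 7 motifs. The TATA box was searched as TATAAA and the NF-Y motif as CCAAT. The GC box bound by SP factors was searched as GGGCGG and the E-box as CACGTG. The core of sites for ETS factors was searched as CCGGAA, the NRF1 motif as GCATGCGC and the YY1 motif as AAAATGGC.
MALAT1, upstream start, chr11:65497488-65497787, plus strand: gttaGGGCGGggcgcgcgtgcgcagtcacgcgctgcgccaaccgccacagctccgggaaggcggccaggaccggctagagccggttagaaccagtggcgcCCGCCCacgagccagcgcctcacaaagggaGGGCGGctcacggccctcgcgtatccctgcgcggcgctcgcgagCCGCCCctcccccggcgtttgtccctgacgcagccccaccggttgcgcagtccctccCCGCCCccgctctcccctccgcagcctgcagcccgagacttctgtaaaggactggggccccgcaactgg
MALAT1, downstream start, chr11:65498795-65499094, plus strand: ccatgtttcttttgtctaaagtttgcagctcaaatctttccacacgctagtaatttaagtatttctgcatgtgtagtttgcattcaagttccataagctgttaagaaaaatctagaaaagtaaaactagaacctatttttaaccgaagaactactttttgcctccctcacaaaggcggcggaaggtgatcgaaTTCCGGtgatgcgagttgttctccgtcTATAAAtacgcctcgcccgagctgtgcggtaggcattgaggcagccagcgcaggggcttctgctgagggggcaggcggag
NONO, chrX:71283385-71283684, plus strand: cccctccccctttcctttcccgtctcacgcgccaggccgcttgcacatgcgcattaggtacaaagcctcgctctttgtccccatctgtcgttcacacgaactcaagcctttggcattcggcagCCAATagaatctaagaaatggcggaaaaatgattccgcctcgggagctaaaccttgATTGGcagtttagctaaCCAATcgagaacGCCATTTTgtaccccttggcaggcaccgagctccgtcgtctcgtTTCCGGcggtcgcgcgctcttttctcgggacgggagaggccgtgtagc
PSPC1, chr13:19782896-19783195, minus strand: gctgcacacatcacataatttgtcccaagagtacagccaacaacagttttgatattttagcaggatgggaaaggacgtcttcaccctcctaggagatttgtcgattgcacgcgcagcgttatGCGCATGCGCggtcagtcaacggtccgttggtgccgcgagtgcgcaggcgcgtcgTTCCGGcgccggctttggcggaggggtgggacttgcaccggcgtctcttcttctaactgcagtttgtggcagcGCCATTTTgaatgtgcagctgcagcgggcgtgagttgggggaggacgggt

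The 2 MALAT1 windows differed in make-up. The upstream one had a GC content of 73.7% and held 5 GC boxes, a motif found in 45% of the 35116 RefSeq promoters of that length. The downstream one had a GC content of 46%, held a TATA box beginning 30 bases before the start, a motif in 11.5% of promoters, and an ETS core, a motif in 17.2%. The median GC content over all promoters was 58.7%. NONO held 3 NF-Y matches, a motif in 34.6% of promoters. PSPC1 held 2 overlapping NRF1 matches, the same stretch read on both strands, a motif in 3.05% of promoters. NONO and PSPC1 each held 1 YY1 match, a motif in 1.82%, and 1 ETS core. No E-box, a motif in 7.26% of promoters, was found in these windows. A match is a match of letters only.

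NEAT1 was higher under OTX in every table. In IMS-M2 with folic acid the DMSO libraries 1 to 3 had 72.6, 54.1 and 65.9 FPKM and the OTX libraries 226, 186 and 217 FPKM. Without folic acid the values were 51.9, 47.7 and 45.9 FPKM under DMSO and 342, 212 and 251 FPKM under OTX. The lowest OTX library stood above the highest DMSO library in both tables, as it did for 30.4% and 33.1% of the genes tested, and OTX replicate 1 without folic acid was the highest NEAT1 library of all 24. With folic acid the mean rose from 64.2 ± 9.37 to 209.7 ± 21.2 FPKM (SD, n = 3), and in its absence from 48.5 ± 3.08 to 268 ± 66.8 FPKM (SD, n = 3). Under limma with Benjamini-Hochberg adjustment, the log2 change was 1.70 (SE 0.16, adjusted p = 1.29e-06) with folic acid and 2.42 (SE 0.16, adjusted p = 6.22e-08) without. All log2 changes are on the log2(FPKM + 1) scale. Of the 11223 genes tested in IMS-M2, 29.8% and 27.5% passed as higher in the same contrasts. NEAT1 ranked 63rd from the top by log2 change with folic acid and 12th without. In bulk RNA a change in the cells that carry a transcript and a change in RNA per cell cannot be told apart.

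In U937 with folic acid NEAT1 had 50.3, 44.3 and 49.3 FPKM under DMSO and 225, 224 and 201 FPKM under OTX. Without folic acid the 3 DMSO libraries had 46.2, 42.1 and 45.7 FPKM and the 3 OTX libraries 291, 299.5 and 290.2 FPKM. The OTX libraries lay close to each other and far above DMSO, which is the pattern the gene was picked for. The log2 change was 2.15 with folic acid and 2.69 without, 12th and 8th from the top among the 11194 genes tested in U937. As a ratio of mean FPKM, NEAT1 was 3.27 and 5.53 times as high under OTX in IMS-M2, with and without folic acid, and 4.52 and 6.57 times as high in U937. By level it moved from between the 1277th and 2054th highest of the 23595 genes under DMSO to between the 249th and 389th under OTX.

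MALAT1 rose in every table. In IMS-M2 with folic acid it had 13.3, 8.46 and 9.06 FPKM under DMSO and 33.3, 34.3 and 34.8 FPKM under OTX. Without folic acid it had 8.80, 8.41 and 7.42 FPKM under DMSO and 40.4, 31.4 and 29.9 FPKM under OTX. DMSO replicate 1 with folic acid was the highest DMSO library, and OTX replicate 1 without folic acid, the top library for NEAT1, was also the top library for MALAT1. U937 with folic acid had 3.70, 3.26 and 3.21 FPKM under DMSO and 8.63, 9.90 and 9.34 FPKM under OTX. U937 without folic acid had 2.39, 2.84 and 4.30 FPKM under DMSO and 16.8, 13.9 and 15.3 FPKM under OTX. All OTX libraries lay above all DMSO libraries of their table, as they did in all 4 tables for 13% of the genes tested in each.

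The log2 change of MALAT1 under OTX in IMS-M2 was 1.66 (SE 0.15, adjusted p = 7.6e-07) when folic acid was present and 1.91 (adjusted p = 2.52e-07) when it was not. In U937 it was 1.23 (SE 0.14, adjusted p = 2.16e-05) with folic acid and 1.99 (adjusted p = 5.54e-07) without, where 29.1% and 28% of genes passed as higher. A pass as higher in all 4 tables was shared by 11.4% of the 10220 genes tested in every table. As ratios of mean FPKM these changes were 3.32, 4.13, 2.74 and 4.83.

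**Figure D1:**
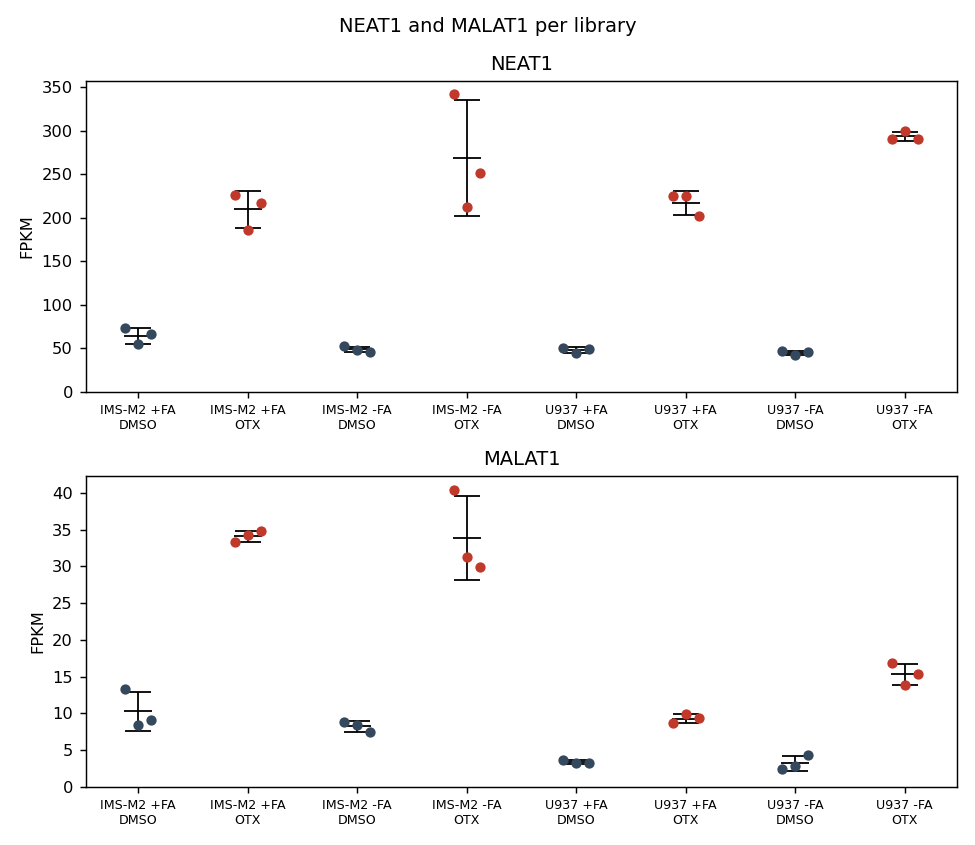
FPKM of NEAT1 (upper panel) and MALAT1 (lower panel) on linear axes from 0 in the 8 groups; points are libraries, dark for DMSO and red for OTX, and the bars are the mean and SD of 3 libraries. In each table the OTX points lie above the DMSO points; NEAT1 reaches 342 FPKM in 1 IMS-M2 library without folic acid and MALAT1 stays at or below 40.4 FPKM.

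The order of the NEAT1 group means, from the top, was U937 -FA OTX, IMS-M2 -FA OTX, U937 +FA OTX and IMS-M2 +FA OTX, then IMS-M2 +FA DMSO, IMS-M2 -FA DMSO, U937 +FA DMSO and U937 -FA DMSO. Neighbours in this order overlapped except at 2 steps, from the lowest OTX group to IMS-M2 +FA DMSO and from that group to IMS-M2 -FA DMSO. In the order of the MALAT1 means the lines were interleaved, and within each line both OTX groups lay above both DMSO groups. The IMS-M2 OTX groups were highest, at 34.1 ± 0.755 and 33.9 ± 5.69 FPKM (SD, n = 3) with and without folic acid, and U937 without folic acid under OTX came next at 15.3 ± 1.44 FPKM (SD, n = 3). The U937 OTX group with folic acid, at 9.29 ± 0.637 FPKM (SD, n = 3), lay within the range of the IMS-M2 DMSO groups. The U937 DMSO groups were lowest, at 3.39 ± 0.268 and 3.17 ± 0.998 FPKM (SD, n = 3). The tables do not state a common scaling, so levels across them are set side by side without a test.

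Within a library, the FPKM of NEAT1 stood above that of MALAT1 in all 8 groups. MALAT1 lacks an ordinary poly(A) tail and the libraries were made from polyA RNA, so these are levels as captured. The bearing of capture on the ratio was not tested. The NEAT1 to MALAT1 ratio of FPKM in IMS-M2 was 6.38 ± 0.903 under DMSO and 6.15 ± 0.690 under OTX with folic acid, and 5.92 ± 0.262 and 7.88 ± 0.977 without (SD, n = 3). In an exact permutation test within the folic acid conditions (two-sided, 400 arrangements, smallest possible p 0.005), the OTX effect on the log2 ratio was 0.18 (p = 0.165, adjusted p = 0.412 over 10 tests). In U937 the ratio was 14.2 ± 1.03 under DMSO and 23.4 ± 2.38 under OTX with folic acid, and 14.9 ± 4.37 and 19.3 ± 2.12 without (SD, n = 3). The U937 ratio rests on the values that NEAT1 was picked for and was not tested.

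Whether the OTX change depended on folic acid was asked as the change without folic acid minus the change with it. It shares libraries with the contrasts above. In IMS-M2 this difference for NEAT1 was 0.72 (SE 0.22, adjusted p = 0.0643) and did not pass, in a contrast where 6.94% of genes did. Its 95% interval before adjustment ran from 0.24 to 1.20, and without OTX replicate 2 of the culture lacking folic acid the difference was 0.88 (adjusted p = 0.0263). Leaving out other libraries gave differences down to 0.53. For MALAT1 in IMS-M2 it was 0.25 (adjusted p = 0.432; interval -0.20 to 0.69). In U937 MALAT1 gave 0.76 (SE 0.20, adjusted p = 0.0536), where 2.01% of genes passed. It passed without DMSO replicate 1 with folic acid (0.71, adjusted p = 0.0438) and without DMSO column 1 lacking folic acid (0.71, adjusted p = 0.0369). NEAT1 in U937 gave 0.54, as a description.

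The mean levels behind these differences, set side by side across tables without a test, moved in opposite ways for NEAT1. Under DMSO the mean without folic acid was 0.756 times that with it in IMS-M2 and 0.931 times in U937. Under OTX it was 1.28 and 1.35 times. NEAT1 libraries with and without folic acid overlapped in U937 under DMSO and in IMS-M2 under OTX, and did not in the remaining pairs. The share of all genes without overlap in such pairs was not counted. The U937 values under OTX are among those that NEAT1 was picked for. For MALAT1 the same ratios were 0.800 and 0.936 under DMSO and 0.993 and 1.65 under OTX.

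Between the lines, the OTX change of MALAT1 in U937 minus that in IMS-M2 was -0.44 with folic acid (adjusted p = 0.0957; interval -0.88 to 0.01) and 0.08 without it (adjusted p = 0.789), in contrasts where 50.6% and 43% of genes passed. Without IMS-M2 DMSO replicate 1 with folic acid, the library in which MALAT1 was 13.3 FPKM, the difference was -0.62 (adjusted p = 0.0121), and without U937 DMSO column 2 lacking folic acid it was -0.44 (adjusted p = 0.0489). For NEAT1 the line difference was 0.46 with folic acid and 0.27 without, as a description; without the IMS-M2 library at 342 FPKM the second value was 0.46.

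The 3 core protein genes changed little under OTX beside the RNAs. SFPQ, a splicing factor needed for paraspeckles to form, did not pass in any table. In IMS-M2 with folic acid it had 195, 230.3 and 237 FPKM under DMSO and 224, 240.3 and 221 FPKM under OTX. Without folic acid it had 192, 183 and 179 FPKM under DMSO and 206, 206 and 187 FPKM under OTX. The groups overlapped in both tables.

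SFPQ in U937 with folic acid had 180.0, 167 and 139 FPKM under DMSO and 178, 173 and 179 FPKM under OTX. In U937 without folic acid it had 162, 149 and 168 FPKM under DMSO and 147, 159 and 147 FPKM under OTX. The groups overlapped there too. The log2 changes were 0.05, 0.11, 0.13 and -0.07, in the order of the tables as given, with adjusted p from limma of 0.614, 0.282, 0.268 and 0.525. The widest 95% intervals, in U937, reached from -0.08 to 0.34 with folic acid and from -0.29 to 0.14 without, far below the NEAT1 and MALAT1 values.

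NONO, the DBHS partner that also acts in DNA repair and transcription, was slightly higher under OTX in every table and passed in 1. In U937 with folic acid it had 341, 308 and 289 FPKM under DMSO and 404, 387 and 366 FPKM under OTX. The log2 change there was 0.31 (SE 0.09, adjusted p = 0.0108). Without DMSO replicate 3 it was 0.25 (adjusted p = 0.0518), so that the pass rested on that library. In U937 without folic acid it had 332, 302 and 289 FPKM under DMSO and 353, 338 and 336 FPKM under OTX, a log2 change of 0.16 (adjusted p = 0.142).

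In IMS-M2 NONO had 218, 235 and 224 FPKM under DMSO and 245, 235 and 237 FPKM under OTX with folic acid. Without folic acid it had 238, 233 and 229 FPKM under DMSO and 249.7, 242 and 243 FPKM under OTX. The log2 changes were 0.08 (adjusted p = 0.281) and 0.07 (adjusted p = 0.378). OTX and DMSO libraries of NONO did not overlap in any of the 4 tables, by the narrow margin of 235.2 against 234.8 FPKM in IMS-M2 with folic acid. The share of all genes with that pattern is 13% for all 4 tables together, and was 32% and 30.3% in U937 with and without folic acid. The change of NONO in U937 minus that in IMS-M2 with folic acid was 0.22 (adjusted p = 0.0558); it passed without any 1 of 5 libraries, namely DMSO replicate 1 of either line and U937 OTX replicate 3 with folic acid, and U937 DMSO columns 0 and 2 without. By level every U937 library of NONO was above every IMS-M2 library. The share of all genes that separate the lines was not counted, and the tables state no common scaling.

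PSPC1, the DBHS protein commonly used as a paraspeckle marker, passed as lower in a single table. In IMS-M2 without folic acid it had 44.9, 41.5 and 44.5 FPKM under DMSO and 32.2, 35.1 and 32.5 FPKM under OTX. The groups did not overlap, as was so with OTX lower for 35% of genes. The log2 change was -0.38 (SE 0.09, adjusted p = 0.00258), where 30% of genes passed as lower. With folic acid it had 40.7, 41.3 and 33.3 FPKM under DMSO and 34.8, 39.0 and 36.0 FPKM under OTX, which overlapped, with a log2 change of -0.06 (adjusted p = 0.543). The folic acid difference of -0.32 did not pass (adjusted p = 0.116), except without DMSO replicate 1 with folic acid (-0.36, adjusted p = 0.0455).

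PSPC1 in U937 with folic acid had 23.0, 25.2 and 24.7 FPKM under DMSO and 25.7, 23.8 and 18.9 FPKM under OTX. In U937 without folic acid it had 23.0, 25.6 and 14.7 FPKM under DMSO and 22.6, 26.5 and 24.1 FPKM under OTX. The groups overlapped in both, and the log2 changes were -0.10 (adjusted p = 0.65) and 0.24 (adjusted p = 0.258). Without folic acid, the change in U937 minus that in IMS-M2 was 0.62 (SE 0.20, adjusted p = 0.0181) and passed. Without the U937 DMSO library at 14.7 FPKM it was 0.39 (adjusted p = 0.0441), and the U937 change itself was 0.006 (adjusted p = 0.971). With folic acid the line difference was -0.03. All IMS-M2 libraries were above all U937 libraries in PSPC1 level, again with no count of the genes that separate the lines.

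**Figure D2:**
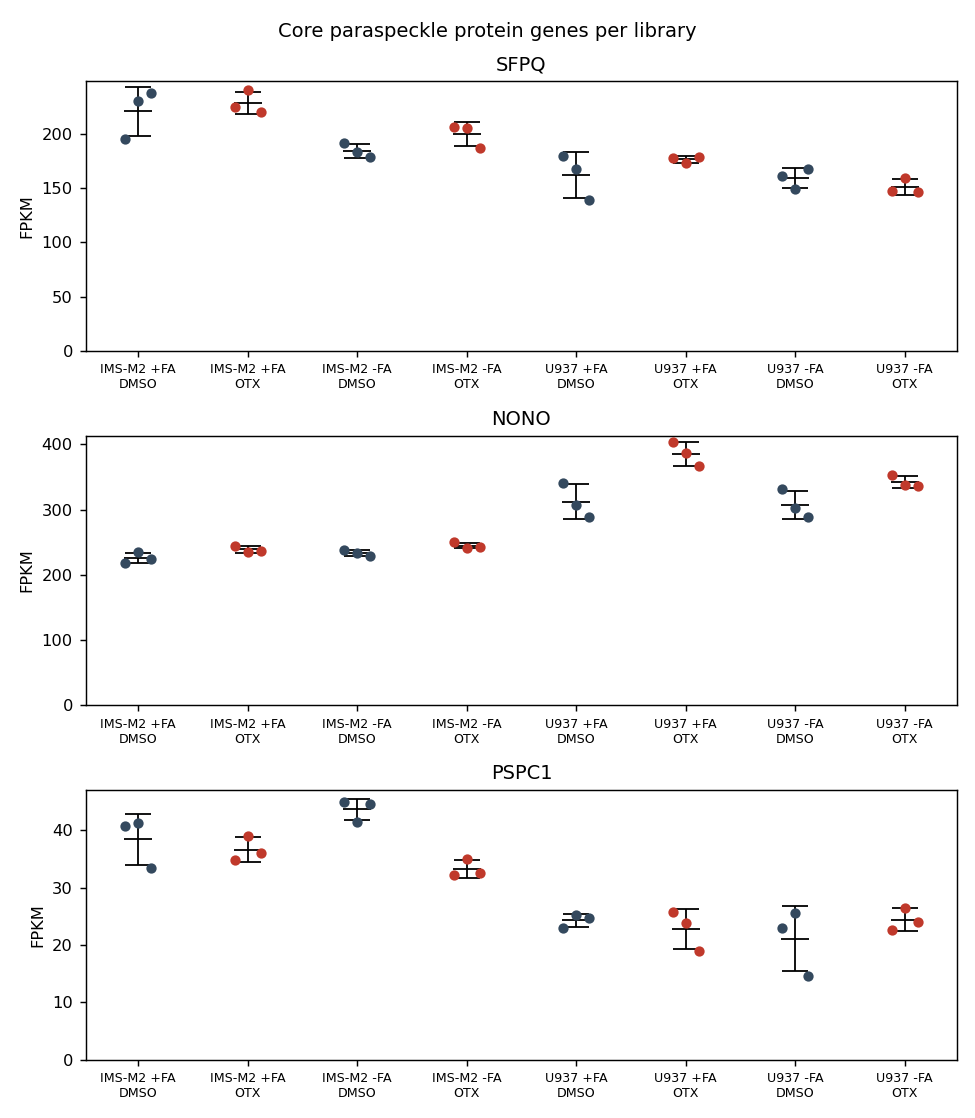
FPKM of SFPQ, NONO and PSPC1 on linear axes from 0 in the 8 groups; points are libraries, dark for DMSO and red for OTX, and the bars are the mean and SD of 3 libraries. NONO lies higher in U937, PSPC1 lies higher in IMS-M2, and the OTX and DMSO points of SFPQ overlap in each table.

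Ratios within a library are free of scaling between tables. SFPQ to NONO was 0.978 ± 0.0824 under DMSO and 0.956 ± 0.0572 under OTX in IMS-M2 with folic acid, and 0.790 ± 0.0140 and 0.815 ± 0.0425 without (SD, n = 3). In U937 it was 0.518 ± 0.0325 and 0.459 ± 0.0262 with folic acid, and 0.520 ± 0.0523 and 0.442 ± 0.0275 without (SD, n = 3). In IMS-M2 the log2 ratio was lower without folic acid by a difference of -0.27 (exact permutation p = 0.005, adjusted p = 0.05 over 10 tests). In U937 it was lower under OTX, by -0.20 (exact permutation p = 0.01, adjusted p = 0.05). PSPC1 to NONO in IMS-M2 was lower under OTX, by -0.30 (exact permutation p = 0.015, adjusted p = 0.05). The smallest possible p was 0.005, so over 10 tests a single test at that p could not by itself have an adjusted p below 0.05. These 3 adjusted values equal the threshold and are not below it. Without IMS-M2 DMSO replicate 3 with folic acid the first and the third were -0.24 and -0.35, each with an adjusted p of 0.0333.

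**Figure D3:**
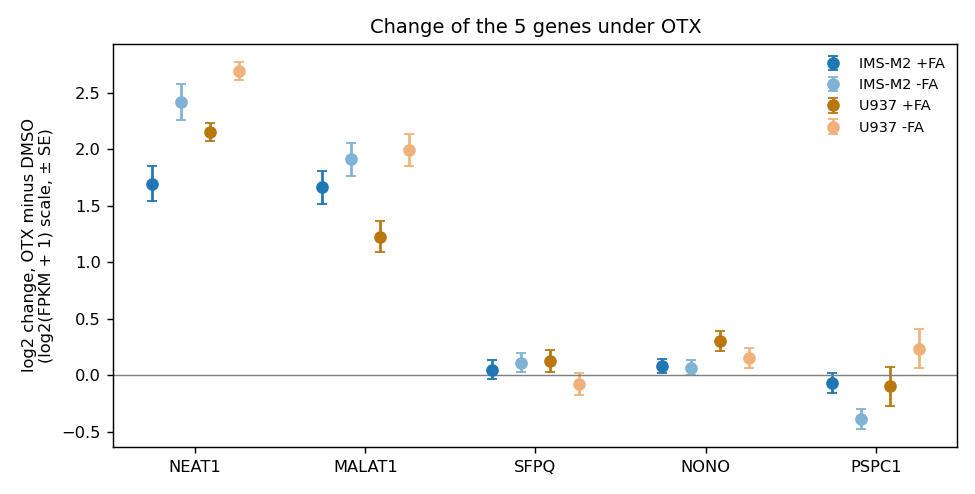
Log2 change under OTX (OTX minus DMSO, log2(FPKM + 1) scale) of the 5 genes in the 4 tables, with SE from the limma fit. NEAT1 and MALAT1 lie between 1.23 and 2.69 in the tables and the 3 protein genes between -0.38 and 0.31.

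On chromosome 11 the genes around both RNAs changed in both directions. The tables place 26 other genes within 250 kb of NEAT1 or MALAT1, of which 19 were tested in each IMS-M2 table and 18 in each U937 table. In IMS-M2, 5 were higher and 6 lower under OTX with folic acid, and again 5 higher and 6 lower without it; of all tested genes 29.8% were higher and 33.4% lower in the first contrast and 27.5% and 30% in the second. In U937, 10 of 18 were higher and 3 lower with folic acid, where 29.1% and 27% of all tested genes were, and 7 higher and 5 lower without, where 28% and 31.7% were. The median log2 changes were 0.02, -0.03, 0.29 and 0.08, beside all-gene medians of -0.03, -0.01, 0.02 and -0.02. None of the tested neighbours reached the change of NEAT1 or MALAT1 in its table. For NEAT1 in U937 this is a description only, since the gene was picked for that rise. Among the neighbours the largest rise in each table was that of FAM89B, with 1.24, 0.60, 0.97 and 1.15. FRMD8, which encodes a partner of the iRhom proteins and lies closest before NEAT1, changed by 0.21 and 0.18 in IMS-M2, where it did not pass (adjusted p = 0.0697 and 0.118), and rose by 0.78 and 0.73 in U937 (adjusted p = 6.93e-05 and 9.95e-05). TIGD3, RNASEH2C, a subunit of ribonuclease H2, and FAM89B rose in all 4 tables, and SSSCA1 and SLC25A45, a mitochondrial carrier, fell in all 4. RELA, the NF-kB subunit, rose by 0.59, 0.27 and 0.28 in all but U937 with folic acid, where it changed by 0.13 (adjusted p = 0.319). MIR612, which starts 17924 bases past the end of the NEAT1 row and lies before MALAT1, was listed at 0 in every library. The row spans 3736 of the 22743 bases that RefSeq gives NEAT1. Counted from the row's start, MIR612 falls within that full length.

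**Figure D4:**
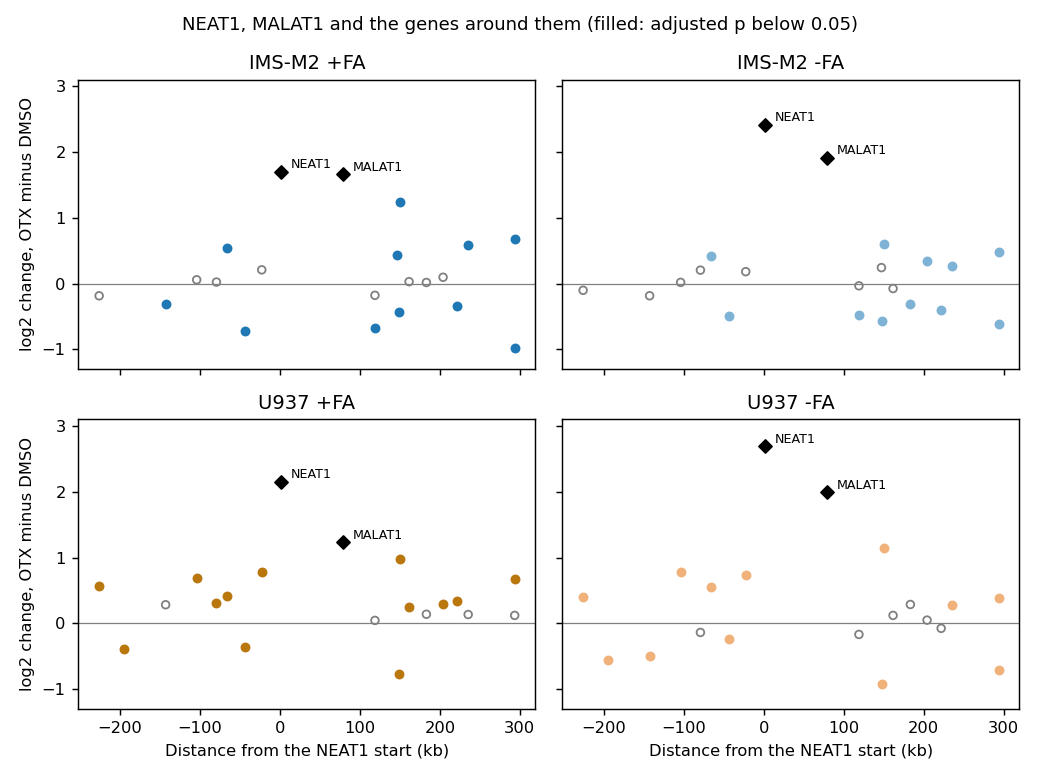
Log2 change under OTX against the distance in kb of each gene's midpoint from the NEAT1 start, 1 panel per table; diamonds are NEAT1 and MALAT1, filled circles passed at an adjusted p below 0.05 and open circles did not. The diamonds lie above every neighbour of their panel, and the highest neighbour value is 1.24. NEAT1 was picked for its rise in the U937 panels.

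Genes whose libraries followed NEAT1 most closely were looked for among 9669 genes, by Pearson correlation over the 24 libraries after each table's mean was subtracted. The 5 closest were HELZ2, a helicase, at 0.983, KIF13B, a kinesin, at 0.982, TRAFD1 at 0.982, ZCCHC24 at 0.980 and NDST2, an enzyme of heparan sulfate synthesis, at 0.980. MALAT1 was 17th, at 0.975. For MALAT1 the closest were SUN1, a protein of the inner nuclear membrane, at 0.984, NEAT1 at 0.975, CARD8, an inflammasome regulator, at 0.964, DUSP6, a phosphatase of ERK, at 0.963, and MCL1, a survival protein of the BCL2 family, at 0.963. The points share their tables and fall into OTX and DMSO clusters, so the values describe the shift under OTX. Against NEAT1 the same measure was 0.729 for NONO, 0.236 for SFPQ and -0.19 for PSPC1. After the mean of each group was subtracted, NEAT1 and MALAT1 had a correlation of 0.524 over 24 libraries, and of 0.371 over 23 libraries without the IMS-M2 library highest in both.

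Beyond the DBHS family, 33 further genes of paraspeckle proteins were in the tables, of which 32 were tested in IMS-M2 and 33 in U937. In IMS-M2, 5 rose and 5 fell with folic acid, where 29.8% of all tested genes rose and 33.4% fell, and 7 rose and 3 fell without, where 27.5% and 30% did. In U937, 5 rose and 6 fell with folic acid, where 29.1% and 27% of all tested genes did, and 3 rose and 13 fell without, where 28% and 31.7% did. Their median log2 changes were -0.00, 0.05, 0.07 and -0.18. CIRBP, a cold-inducible RNA-binding protein, rose in all 4 tables, by 0.72, 0.85, 0.61 and 0.88, which 11.4% of all tested genes did. FAM98A and SMARCA4, the ATPase of the BAF chromatin remodeller, fell in all 4, which 11.8% of genes did. HNRNPK, which favours the long form of NEAT1, rose in IMS-M2 with folic acid by 0.33 (adjusted p = 0.00397) and did not pass in the other tables, with 0.09 in IMS-M2 without folic acid and -0.14 and 0.04 in U937 (adjusted p = 0.363, 0.278 and 0.776). Single libraries moved these counts. Without DMSO replicate 1 with folic acid, 11 genes fell in IMS-M2 with folic acid and 5 in IMS-M2 without. Without DMSO column 0 or OTX column 1, 8 fell in U937 without folic acid. In U937 with folic acid 3 rose when any 1 of 6 libraries was left out, namely DMSO replicates 2 and 3 and OTX replicate 3 with folic acid and DMSO column 0 and OTX columns 1 and 2 without.

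Of the 21 factors that process the 3′ ends of NEAT1 and MALAT1 or act in their decay, all tested in all 4 tables, 5 rose and 6 fell in IMS-M2 with folic acid, where 29.8% of all tested genes rose and 33.4% fell. The remaining 3 tables each had 1 that rose, while 7, 7 and 11 fell in turn, where 27.5%, 29.1% and 28% of all tested genes rose and 30%, 27% and 31.7% fell. The single gene that rose was PAPOLG, a poly(A) polymerase, in IMS-M2 and U937 without folic acid, and POP5 in U937 with it. The median log2 changes were -0.12, -0.15, -0.15 and -0.25. METTL16, which binds the triple helix at the MALAT1 3′ end, fell in all 4 tables, with log2 changes of -0.44, -0.59, -1.10 and -0.91. ELAC2, the RNase Z that trims the tRNA-like piece released from MALAT1, and RPP38, a subunit of RNase P, also fell in all 4 tables. RPP40, another subunit, fell in U937, with log2 changes of -1.09 and -0.85, and in IMS-M2 rose with folic acid (0.30, adjusted p = 0.0124) and fell without it (-0.30, adjusted p = 0.014). The single rises were lost on leaving out 1 of several libraries, in each of the 3 tables.

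Among 30 genes of nuclear speckle proteins, the body where MALAT1 collects, 14 rose and 5 fell in IMS-M2 with folic acid, where 29.8% of all tested genes rose and 33.4% fell, and 12 rose and 1 fell without, where 27.5% and 30% did. In U937, 4 rose and 2 fell with folic acid, where 29.1% and 27% did, and 5 rose and 6 fell without, where 28% and 31.7% did. The share of the list that rose was thus above that of all genes in both IMS-M2 tables and below it in both U937 tables, as a description. The medians were 0.22, 0.19, -0.02 and 0.13. The lines were not compared by a test of these counts. SON, a scaffold of the speckle, and CLK1, a kinase of splicing factors, rose in all 4 tables, CLK1 by 0.63 and 0.83 in IMS-M2 and SON by 0.36 and 0.31 in U937. SRRM2, the other speckle scaffold, rose by 0.73 in IMS-M2 without folic acid (adjusted p = 0.000182) and did not pass as higher in either U937 table. U2AF1, which reads the 3′ splice site, fell in all 4 tables, with log2 changes of -0.48, -0.41, -0.47 and -0.80. In U937 with folic acid 7 rose without DMSO replicate 1. Fewer fell without a single library, 3 in IMS-M2 with folic acid (DMSO replicate 2 or 3) and 3 in U937 without it (OTX column 1). The small counts of genes that fell in the other tables ran from 1 to 2 and from 1 to 3 as single libraries were left out.

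Other long noncoding RNAs rose and fell in every table. Of 21 tested in each table, 5 rose and 9 fell in IMS-M2 with folic acid (29.8% and 33.4% of all tested genes did) and 3 rose and 7 fell without (27.5% and 30%). In U937, 3 rose and 9 fell with folic acid (29.1% and 27%) and 5 rose and 8 fell without (28% and 31.7%). The medians were -0.15, -0.02, -0.29 and -0.21. LINC00657 and MIR22HG, the host transcript of miR-22, rose in all 4 tables, MIR22HG from 0.275 to 2.04 FPKM in U937 without folic acid. LINC00657 rose by 0.82 in IMS-M2 without folic acid and by 0.53 in U937 with it. TUG1 rose by 0.54 in IMS-M2 without folic acid and by 0.41 and 0.35 in U937. DANCR, a host of a snoRNA, and EPB41L4A-AS1 were among 3 that fell in all 4 tables. DANCR had log2 changes of -0.91 in IMS-M2 with folic acid and of -1.74 and -2.13 in U937. H19, the imprinted transcript, fell in IMS-M2 from 462 to 29.6 FPKM where folic acid was present and from 137 to 6.70 FPKM where it was absent, log2 changes of -3.93 and -4.17. The count that rose was 3 in IMS-M2 with folic acid without OTX replicate 2, and 3 in U937 without folic acid without OTX column 2. In IMS-M2 without folic acid it was 5 without DMSO replicate 1 or 3 of the culture with folic acid and 6 without OTX replicate 3.

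**Figure D5:**
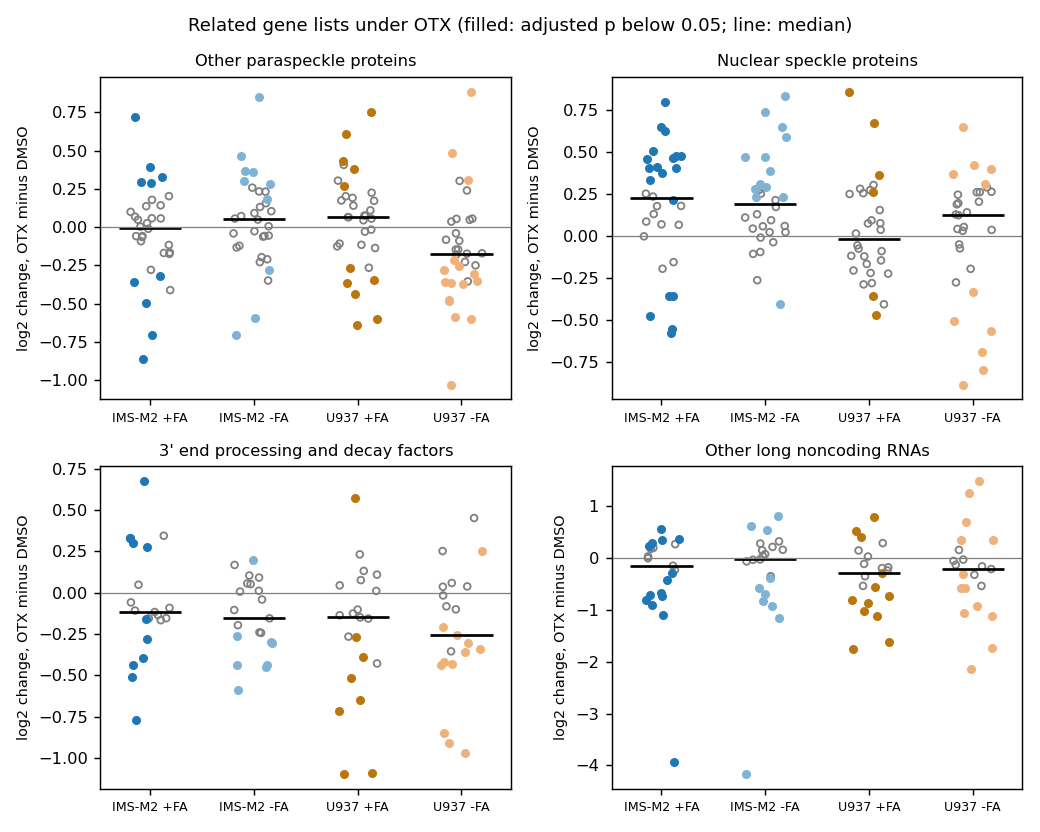
Log2 change under OTX of every tested gene in 4 related lists, by table; filled points passed at an adjusted p below 0.05, open points did not, and the line is the median of the list. The lists spread to both sides of 0, and the lowest points of the noncoding RNA panel are H19 at -3.93 and -4.17 in IMS-M2.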

How the data were processed

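Stranded polyA RNA libraries of 24 samples were sequenced. The authors deposited 4 tables of FPKM values, normalized for transcript length and mapped fragments; the tables' common scaling is not given in the sources used here. The submitters' processing notes name the build hg19 and the tools Cuffdiff 2.2.1, TopHat2 2.1.1 and bcl2fastq 2.17.1.14, and the labels' protocols name a Qiagen RNAEasy kit and the TruSeq Stranded mRNA LT kit. FPKM values hold no counts, so no count test was run and no counting interval is given.

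From these, log2(FPKM + 1) was fitted in limma 3.58.1 (R 4.3.3) with 1 mean per group, over the 12 libraries of a line, or all 24 for differences between lines, with an intensity trend. A gene was tested where any group averaged 1 FPKM or more, and p-values were adjusted by Benjamini-Hochberg over all of them; a gene passed, rose or fell at an adjusted p below 0.05. Intervals of 95% are before adjustment. The script was tested on simulated data. Ratios within libraries were compared by exact permutation, adjusted over 10 tests. For OTX the labels were permuted within each folic acid condition of a line, and so within a table. For folic acid they were permuted within DMSO and within OTX of a line, and so across tables. Genes named from a list are the members called in a table with the smallest p, up to 4 in each direction, besides those called alike in all 4 tables and those within 250 kb of NEAT1 or MALAT1; the likeness search used genes of which a group averaged 5 FPKM or more. The genes and lists were chosen with earlier results of these data known.

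U937 columns without folic acid are numbered from 0 in the table and were matched to groups only. Same-numbered OTX and DMSO libraries did not deviate together in all pairs, so no pairing was used. Alternatives were a pseudocount of 0.1, no filter, a filter at 5 FPKM, median-of-ratios scaling within a table, only the 6 libraries of a table, no trend, a replicate block, and leaving out each of the 24 libraries. Some genes that the naming rule covers are not reported here.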

Additional observations from a re-analysis of the deposited data

Results flagged for a closer look

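The OTX change of PSPC1 differed between the lines without folic acid, by the test of the difference itself: U937 minus IMS-M2 was 0.62 on the log2(FPKM + 1) scale (limma, adjusted p = 0.0181). PSPC1 changed by -0.38 in IMS-M2 and by 0.24 in U937, where the change alone did not pass (adjusted p = 0.258). The U937 change was 0.006 (adjusted p = 0.971) without the DMSO library at 14.7 FPKM. Of all genes, 43% passed in this contrast. The difference passed whichever library was left out, with values from 0.39 to 0.77 and adjusted p from 0.00297 to 0.0491, and was lowest without the U937 DMSO library at 14.7 FPKM.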

How the results depend on the processing

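The OTX changes of MALAT1 in all 4 tables, of NEAT1 in IMS-M2 and of PSPC1 in IMS-M2 without folic acid kept their direction and passed under each alternative, and no value that had passed changed sign. Some values that had not passed did so when 1 library was left out, among them the OTX changes of SFPQ in IMS-M2 with folic acid (-0.03 to 0.11) and of PSPC1 in U937 with folic acid (-0.19 to 0.03), and the MALAT1 line difference without folic acid (-0.06 to 0.27). The genes passing in the folic acid contrasts were not stable. In IMS-M2, 779 passed, against 445 with no filter, 1920 with a replicate block and 82 to 3429 on leaving out 1 library (3429 without DMSO replicate 1 with folic acid, 82 without OTX replicate 1 lacking it). In U937, 225 passed, against 31 at a pseudocount of 0.1, 128 with no filter, 0 with a replicate block and 1 to 2704 on leaving out 1 library (2704 without DMSO column 1 lacking folic acid). With the replicate block, NEAT1's folic acid difference in IMS-M2 passed (0.72, adjusted p = 0.0232). By the data it was not settled whether the numbers pair the samples. Same-numbered deviations had correlations from 0.05 to 0.28 in IMS-M2, where not every pair was above 0.1. In U937 with folic acid they ran from -0.34 to 0.13. Every IMS-M2 library correlated best with its own number except OTX replicate 1 with folic acid, a hint from the data and not from the design.

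Leaving out 1 library at a time gave 0.53 to 0.88 for that NEAT1 difference, -0.37 to -0.22 for the folic acid difference of PSPC1 in IMS-M2, 0.25 to 0.37 for NONO under OTX in U937 with folic acid, and 0.63 to 0.95 for the folic acid difference of MALAT1 in U937. For the line differences it gave -0.62 to -0.32 for MALAT1 and 0.17 to 0.29 for NONO with folic acid, and 0.12 to 0.46 for NEAT1 without. NONO's line difference with folic acid, 0.22 (adjusted p = 0.0558), passed with no filter (0.22, adjusted p = 0.0443) and with no trend (0.22). The log2 ratio effects in IMS-M2 ran from -0.30 to -0.24 for SFPQ to NONO by folic acid and from -0.35 to -0.27 for PSPC1 to NONO by OTX. Where a call changed, the cause was not tested. Of the counts in lists and group levels, 75 values moved and 1334 did not. Unknown read depth and 3 libraries a group limit what small differences can be shown.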
